A study of Mus musculus with 15 samples.

Results

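Gene expression in control mice was compared between hearts taken at 3, 4 and 5 h and hearts taken at 0, 0.5 and 1 h. These were 6 of the 15 arrays of a time series on aldosterone, the adrenal mineralocorticoid, in the mouse heart. The members were chosen by the times in the sample titles, and all 45101 probe sets of the array were considered. The late controls were 1 array each at 3, 4 and 5 h, and the start controls were 1 array each at 0, 0.5 and 1 h. The 0 h heart had no injection per its label. The labels read here give neither what the timed controls received, nor a dose, strain, sex or age. They also do not say whether an array holds 1 animal or a pool. The aldosterone arrays set beside them were taken at 3, 4 and 5 h and at 0.5 and 1 h, 5 arrays in all. Whole hearts were snap frozen and total RNA was labelled for the array. Each array of a group is a different time, so the spread within a group holds both time and array error, and p-values measure only that spread, which may be technical.

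Handling and injection activate the stress axis, and the adrenal gland then releases glucocorticoids, which act on the heart through receptors that bind DNA. Known targets of these receptors include the metallothioneins, small proteins that bind zinc, and the repressor gene Zbtb16. Cytokines act in parallel through STAT proteins and NF-kB on acute phase genes and on adhesion molecules of the vessel wall, and interferons induce a further set of antiviral genes.

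Values are log2 of the deposited signal plus 167.8, after quantile normalization, so differences of dim genes are understated. The 22286 probe sets with a mean signal of at least 526.7 were tested, and a probe set was called at a Benjamini-Hochberg adjusted p under 0.05 in limma. The control arrays had median deposited signals of 464.1 to 540.2 at 3 to 5 h and 515.7 to 741.4 at 0 to 1 h. Each of 3 scan days held 1 late and 1 start control array. The log2 ratio of 3′ to 5′ Gapdh signal, a sign of RNA or target quality, was 0.47 to 3.21 in late arrays, with the high value at 4 h, and -0.17 to 0.78 in start arrays. The 19 ventricular and sarcomere genes had summed signals of 2743881.3 to 3573224.4 late and 3056847.9 to 3799741.2 at the start, and 0 of them were near background, so markers of the labelled tissue were present on each array.

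The 1 h start array stood apart. Its 16 lung epithelium markers summed to 239944.3, against 17611.6 to 21356.9 in the late arrays and 19555.8 to 20004.7 in the start arrays at 0 and 0.5 h. Scgb1a1, a secretory protein of airway cells, and Sftpc, a surfactant protein of the alveoli, had log2 values of 16.85 and 15.23 on it. The 9 erythroid markers summed to 19096.8 to 21098.5 late and 20557.4 to 48380.6 at the start, with the high value again at 1 h. The count of calls and the medians and counts of the main lists are given also without this array, and the part of lung RNA in them was not tested.

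**Figure D1:**
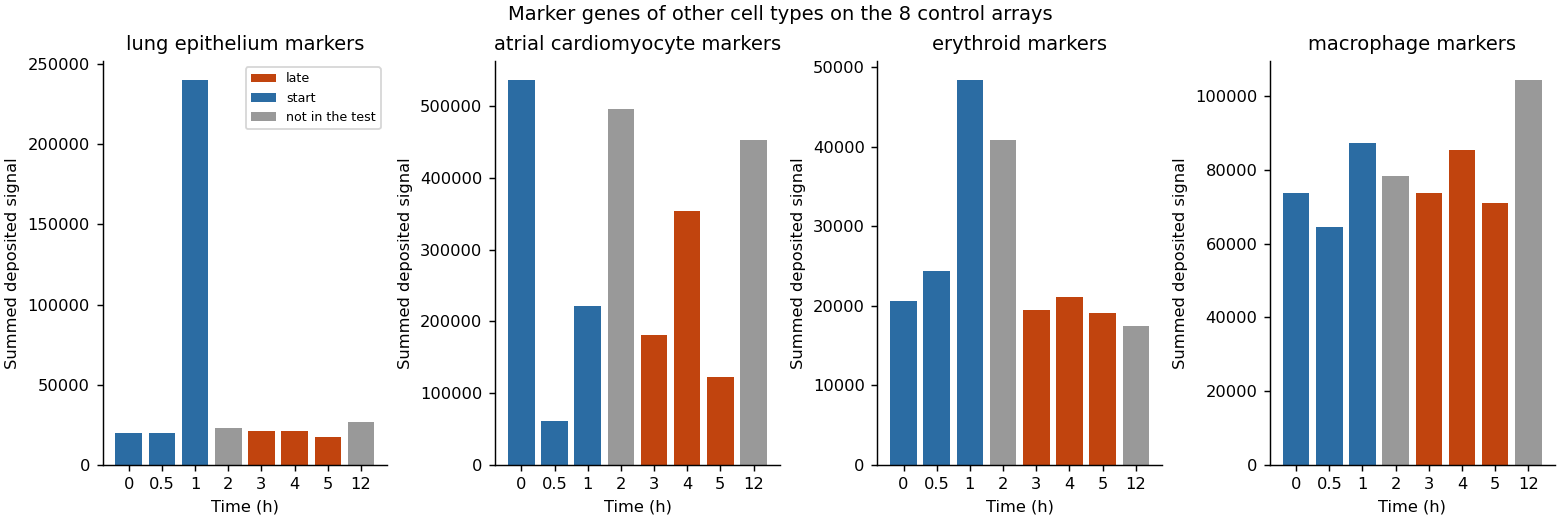
Summed deposited signal of the markers of 4 other cell types on each control array in time order, with late arrays in red, start arrays in blue and the arrays outside the test in grey. The lung sum stood at 239944.3 on the 1 h array and between 17611.6 and 26701.3 on the other 7, while atrial sums varied within both groups.

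In the late hearts 17 probe sets were called higher (0.0763% of 22286) and 1 lower (0.00449%), and 2143 had an unadjusted p under 0.05. Among them 14 carried 1 gene symbol, for 12 genes, 2 carried several symbols and 2 carried none. Higher were the metallothioneins Mt2 and Mt1, Zbtb16, the protease inhibitor gene Serpina3n, the adhesion gene Selp, the interferon-induced Gbp2, Ifit1, Ifit3 and Rtp4, the clock and replication gene Timeless, and Pdk4, a brake on glucose oxidation. The natriuretic peptide gene Nppb was the gene called lower. In whole hearts, fewer cells of a type and less RNA per cell cannot be told apart. Without the 1 h array 65 probe sets were called, 43 higher and 22 lower, and 17 of the 18 were among them, Ifit1 being the exception (adjusted p = 0.0526). With the Gapdh ratio as a covariate 4 were called, Mt2, Serpina3n and Gbp2 among them. With scan day as a block 71 were called, including all 18, and without the variance trend 1. With the deposited scaling in place of quantile normalization 12 of the 18 passed, and Selp, Ifit1, Mt1, Pdk4 and Nppb did not (adjusted p = 0.0596, 0.0639, 0.0773, 0.145 and 0.151).

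**Figure D2:**
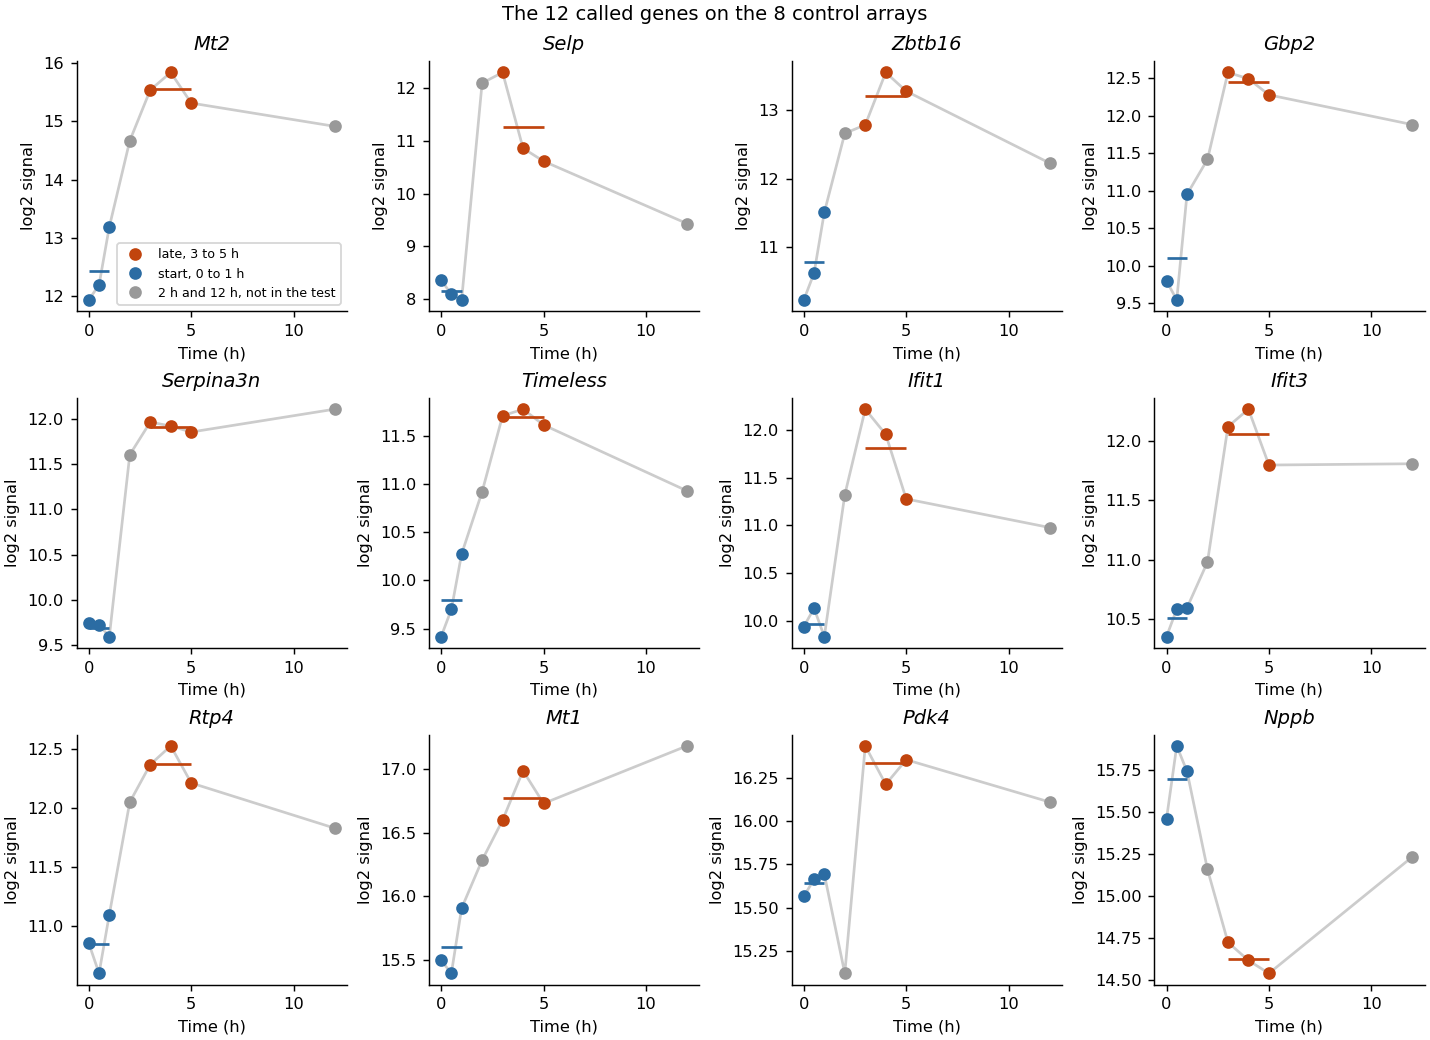
log2 signal of the 12 called genes against time on the 8 control arrays, with late arrays in red, start arrays in blue, the 2 h and 12 h arrays in grey and bars at the group means. Late arrays lay above start arrays in 11 panels and below them in that of Nppb.

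The promoters of the genes that lead the metallothionein and interferon groups are shown first, since each group is known for a response element. They are 300 bases around the RefSeq start, from RefSeq on GRCm38.p6, and no promoter entry was at hand for Rtp4 or Zbtb16. In the metallothionein promoters, capitals mark matches on either strand to TGCNCNC, a looser form of the metal response element core. That core, TGCRCNC with R for A or G, is bound by the zinc sensor MTF1.
Mt2, chr8:94172368-94172667, plus strand: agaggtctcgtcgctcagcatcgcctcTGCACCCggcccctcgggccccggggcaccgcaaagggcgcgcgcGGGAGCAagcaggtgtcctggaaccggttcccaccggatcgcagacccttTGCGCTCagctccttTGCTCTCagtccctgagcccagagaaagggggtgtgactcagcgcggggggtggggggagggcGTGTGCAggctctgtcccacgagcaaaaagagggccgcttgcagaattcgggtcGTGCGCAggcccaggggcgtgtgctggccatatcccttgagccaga
Mt1, chr8:94178839-94179138, plus strand: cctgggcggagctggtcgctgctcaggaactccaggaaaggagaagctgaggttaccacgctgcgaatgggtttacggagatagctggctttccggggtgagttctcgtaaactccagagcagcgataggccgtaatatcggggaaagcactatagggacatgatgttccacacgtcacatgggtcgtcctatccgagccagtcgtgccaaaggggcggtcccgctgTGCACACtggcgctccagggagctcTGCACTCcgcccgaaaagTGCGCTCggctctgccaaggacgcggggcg
Mt2 held 6 matches to the looser form and Mt1 held 3. The Mt2 matches TGCTCTC and GGGAGCA, which reads TGCTCCC on the other strand, have T where the core has A or G. Of 32851 promoters of this length, 51.0% held at least 1 match, 7.1% at least 3 and 0.225% at least 6.

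In the interferon promoters, capitals mark matches on either strand to TTTCNNTTTC, the core of the interferon-stimulated response element.
Ifit1, chr19:34640639-34640938, plus strand: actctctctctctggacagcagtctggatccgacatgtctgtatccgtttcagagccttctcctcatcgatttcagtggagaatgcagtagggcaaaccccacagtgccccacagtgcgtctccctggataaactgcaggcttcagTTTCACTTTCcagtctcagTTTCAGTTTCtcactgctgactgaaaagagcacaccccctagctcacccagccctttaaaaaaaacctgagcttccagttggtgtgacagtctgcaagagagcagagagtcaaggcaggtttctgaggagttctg
Ifit3, chr19:34583279-34583578, plus strand: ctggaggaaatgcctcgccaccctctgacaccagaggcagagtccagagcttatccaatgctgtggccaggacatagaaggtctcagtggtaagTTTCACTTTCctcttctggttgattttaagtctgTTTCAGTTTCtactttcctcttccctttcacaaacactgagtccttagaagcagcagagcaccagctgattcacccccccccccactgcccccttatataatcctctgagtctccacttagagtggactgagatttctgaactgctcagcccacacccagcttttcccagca
Gbp2, chr3:142620413-142620712, plus strand: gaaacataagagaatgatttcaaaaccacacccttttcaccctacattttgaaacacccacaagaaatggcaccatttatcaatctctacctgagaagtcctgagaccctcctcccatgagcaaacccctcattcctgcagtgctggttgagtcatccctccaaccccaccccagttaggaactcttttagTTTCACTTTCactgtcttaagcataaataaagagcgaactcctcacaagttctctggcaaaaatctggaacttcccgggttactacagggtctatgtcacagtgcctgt
Ifit1 and Ifit3 held 2 matches each and Gbp2 held 1. At least 1 match was found in 3.44% of promoters and at least 2 in 0.225%. A match is a string of letters in this window, and no binding was measured.

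The metallothioneins Mt2 and Mt1 and the corticosteroid targets Zbtb16 and Pdk4 were called higher late. Mt2 had log2 values of 15.54, 15.84 and 15.31 at 3, 4 and 5 h, against 11.93, 12.19 and 13.19 at 0, 0.5 and 1 h. The groups did not overlap, and the 1 h value was the highest of the start. Mt2 averaged 15.56 ± 0.26 late and 12.44 ± 0.66 at the start (SD, n = 3 each), an 8.72-fold difference of 3.13 ± 0.28 (log2, SE; limma adjusted p = 0.00548). Mt1 had 16.60, 16.99 and 16.73 late, against 15.50, 15.39 and 15.91 at the start, 2.26-fold higher (adjusted p = 0.0308). A dim second probe set of Mt1 differed by 0.06, and the called one may also read related transcripts. Slc39a14, a zinc importer, had 12.86, 12.85 and 12.72 late against 11.70, 11.96 and 12.15 at the start and did not pass (adjusted p = 0.151). The zinc exporter gene Slc30a1 had 11.39, 11.50 and 12.13 late, against 8.89, 10.77 and 11.37 at the start (adjusted p = 0.489). Of the 17 tested metallothionein and zinc transporter genes, 2 were called higher and 0 lower, beside 0.0951% and 0.00865% of all genes. The median difference was 0.26, or 0.36 without the 1 h array, beside 0.03 over 11567 genes.

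Zbtb16 was higher on both of its called probe sets. The brighter had 15.83, 15.36 and 15.18 late, against 13.54, 13.67 and 14.25 at the start, a difference of 1.64 ± 0.21 (SE; adjusted p = 0.0308). The dimmer had 12.79, 13.55 and 13.28 late against 10.24, 10.63 and 11.51 at the start, a difference of 2.41 ± 0.31 (adjusted p = 0.0308). Another probe set differed by 0.10. Pdk4, whose kinase inactivates pyruvate dehydrogenase, had 16.43, 16.21 and 16.35 late, against 15.57, 15.66 and 15.69 at the start (difference 0.69 ± 0.10; adjusted p = 0.0394). Pik3r1, the regulatory subunit of PI3 kinase, and the transglutaminase gene Tgm2 had differences of 0.77 ± 0.12 and 0.78 ± 0.13 and did not pass (adjusted p = 0.0705 and 0.0790).

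Of 39 tested corticosteroid receptor targets, 4 were called higher and 0 lower, beside 0.0951% of all genes called higher and 0.00865% called lower. Groups did not overlap and differed by at least 2-fold in 6 targets, each higher, beside 0.847% of genes higher and 0.424% lower. With the deposited scaling in place of quantile normalization the genes not overlapping by 2-fold were 61 higher and 79 lower, against 98 and 49, so the split between directions depends on scaling. The median difference of the list was 0.50, with 29 of 39 members above 0, beside 6230 of 11567 genes. In the lower direction 3 members had an unadjusted p under 0.05. Without the 1 h array the median was 0.62, and 9 members did not overlap and were at least 2-fold higher, beside 291 of 11567 genes. The list was drawn up with earlier results of these data known, so its counts describe these arrays. Metallothioneins belong to it as well.

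Interferon response genes had a median difference of 0.75, and 39 of 42 tested members lay above 0, beside 6230 of 11567 genes. Called higher were 4, beside 0.0951% of all genes, and 12 did not overlap between the groups and were at least 2-fold higher, beside 0.847% of all genes. Gbp2, a guanylate-binding GTPase of antimicrobial defence, had 13.31, 13.05 and 12.90 late, against 10.70, 10.45 and 11.20 at the start. Late values were clear of the start values, the difference was 2.30 ± 0.22 (SE; adjusted p = 0.00708), and a second probe set had 2.35 ± 0.33 (adjusted p = 0.0394).

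Ifit1, whose protein binds uncapped viral RNA, had 12.22, 11.95 and 11.28 late, against 9.94, 10.13 and 9.83 at the start, 3.60-fold higher (adjusted p = 0.0413). Ifit3, its partner, had 12.12, 12.26 and 11.79 late against 10.35, 10.58 and 10.60 at the start, 2.92-fold higher (adjusted p = 0.0308). Rtp4, an interferon-induced gene, had 12.37, 12.52 and 12.21 late against 10.86, 10.60 and 11.10 at the start, 2.86-fold higher (adjusted p = 0.0308). Among members that did not pass, Oasl2 had 11.30, 11.65 and 11.68 late, against 9.64, 10.15 and 10.47 at the start (difference 1.46; adjusted p = 0.114). Cmpk2, a mitochondrial nucleotide kinase, differed by 1.53 (adjusted p = 0.151). The 3 members below 0 were Isg20, Lgals3bp and Oasl1. List medians within the 3 scan days were 0.80, 0.61 and 0.80, and the median was 0.83 without the 1 h array. In that setting 14 members did not overlap and were at least 2-fold higher, beside 291 of 11567 genes. Macrophage markers, whose cells express interferon genes, summed to 71029.3 to 85425.3 late and 64364 to 87387.3 at the start, and their part was not tested. Antigen presentation genes of MHC class I and the immunoproteasome had a median of 0.43, with 12 of 13 above 0 and 0 called. Tap1, the peptide transporter, differed by 1.21 ± 0.27 (adjusted p = 0.25).

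**Figure D3:**
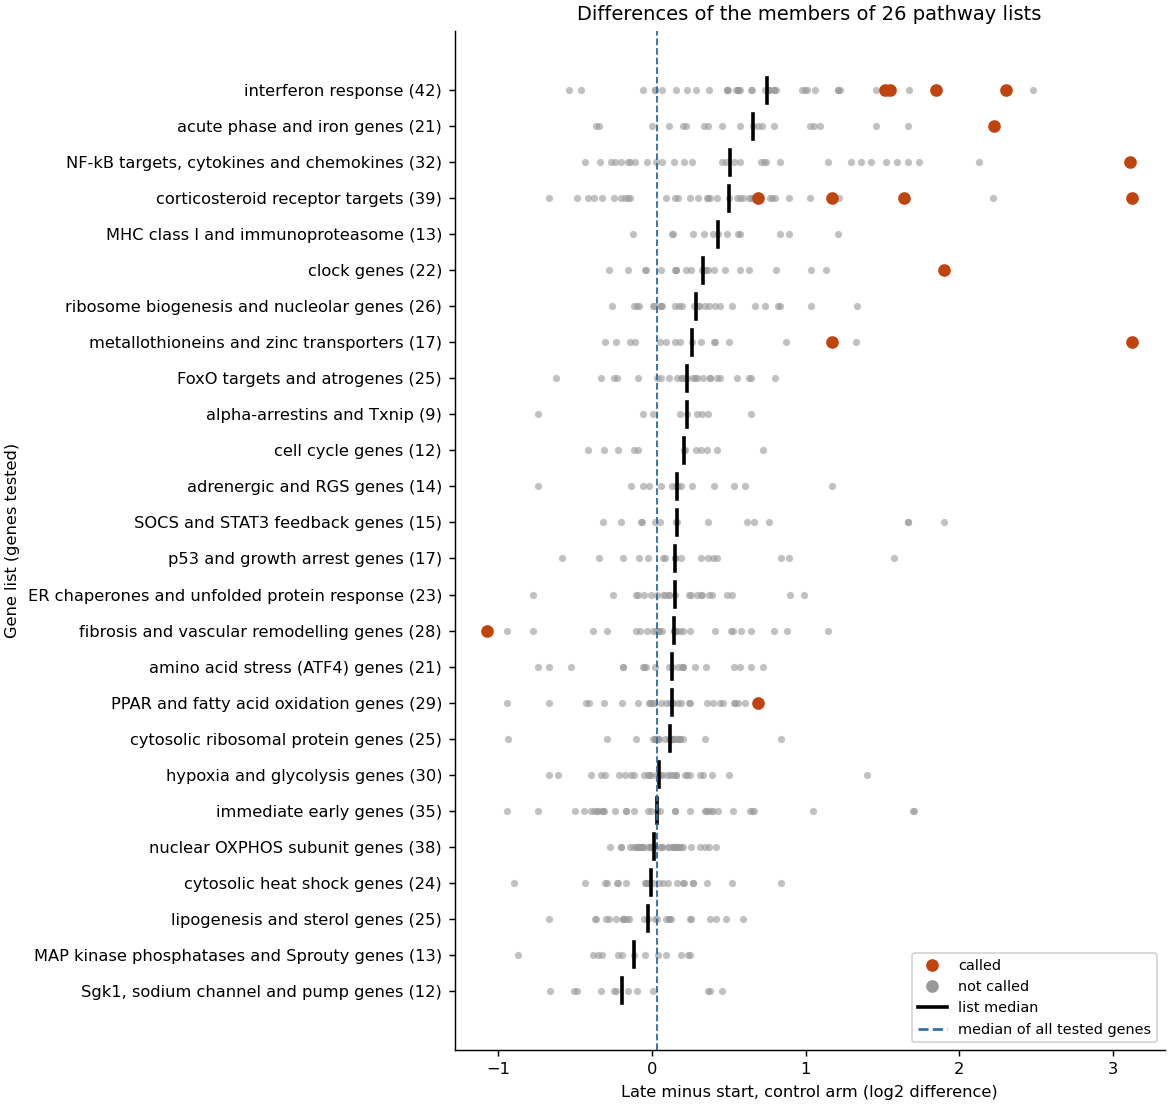
Late minus start differences (log2) of the members of 26 pathway lists, 1 point per gene, with called genes in red, list medians as black bars and the median of all tested genes dashed. Interferon, acute phase, cytokine and corticosteroid lists had medians of 0.50 to 0.75, beside 0.03 over all genes.

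Acute phase and iron genes had a median difference of 0.66, with 19 of 21 tested members above 0, beside 6230 of 11567 genes. Called higher was 1 member, beside 0.0951% of all genes. Without the 1 h array the median was 0.91, above the 0.83 of the interferon list. Not overlapping and at least 2-fold higher were 5 members, beside 98 of 11567 genes. Without the 1 h array 7 members were, beside 291 of 11567 genes. Serpina3n, an inhibitor of serine proteases that acute phase cytokines induce, had 11.96, 11.92 and 11.85 late, against 9.75, 9.73 and 9.59 at the start. The groups were far apart for their spread, with means of 11.91 ± 0.06 and 9.69 ± 0.08 (SD, n = 3 each) and a 4.67-fold difference (adjusted p = 0.00548). Osmr, the oncostatin M receptor, had 12.66, 12.54 and 11.86 late against 10.78, 10.37 and 10.92 at the start and missed the threshold (difference 1.66 ± 0.25; adjusted p = 0.0561). Saa3, a serum amyloid gene, had 10.85, 11.32 and 11.28 late against 9.83, 9.59 and 9.66 at the start (adjusted p = 0.0736). Lcn2, which binds bacterial siderophores, had 11.36, 11.97 and 11.81 late, against 8.75, 9.03 and 10.70 at the start, with the 1 h array nearest the late ones (adjusted p = 0.173). Neutrophils also carry Lcn2, and the 14 neutrophil markers, Lcn2 among them, summed to 12361.6 to 16697.1 late and 10696.6 to 23419.7 at the start.

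Adhesion and cytokine genes were led by Selp, which encodes P-selectin, the endothelial receptor that lets leukocytes roll. Selp had 12.30, 10.86 and 10.62 late, against 8.37, 8.09 and 7.99 at the start. The difference of 3.11 ± 0.43 (SE) was 8.64-fold (adjusted p = 0.0394), and the late values spread more than the start values (SD 0.91 and 0.20). The start values were near background, so Selp passed the filter on mean signal through the arrays where it was high. The size of its difference therefore depends on the pseudocount. It was 3.82 with the pseudocount at the 10th percentile (adjusted p = 0.0401). With the pseudocount at the median it was 2.15, and Selp was not called (adjusted p = 0.0565). Its 2 dimmer probe sets outside the test differed by 0.46 and 0.33. The endothelial markers as a list had 8 members above 0 and 11 below. Of 32 tested NF-kB targets, cytokines and chemokines, Selp was the 1 called (0.0951% of all genes were called higher), and 7 did not overlap and were at least 2-fold higher, beside 0.847% of all genes. Without the 1 h array 13 were, beside 291 of 11567 genes. The chemokine genes Ccl9, Cxcl9, Ccl6 and Ccl2 differed by 1.52, 2.13, 1.14 and 1.43 and did not pass (adjusted p 0.151 to 0.417). The list median was 0.51, 0.55 without the 1 h array, and within scan days 0.85, -0.02 and 0.40. Socs3, a feedback inhibitor of cytokine receptors, had 12.44, 11.53 and 10.90 late against 9.06, 8.90 and 11.21 at the start, with the groups overlapping through the 1 h array (adjusted p = 0.417). Of 15 tested SOCS and STAT3 feedback genes 0 were called, and 1 did not overlap and was at least 2-fold higher, beside 98 of 11567 genes. Without the 1 h array 3 were, beside 291 of 11567 genes.

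Clock genes had a median difference of 0.33, or 0.34 without the 1 h array. Of 22 tested members 18 lay above 0, beside 6230 of 11567 genes. Timeless, named for the fly clock gene and active at mammalian replication forks, had 11.71, 11.78 and 11.61 late, against 9.42, 9.70 and 10.27 at the start, a difference of 1.90 ± 0.25 (adjusted p = 0.0334). A dim second probe set, outside the test, differed by -0.12. Dbp, an output factor of the clock, had 12.31, 11.97 and 12.60 late against 11.27, 11.60 and 10.90 at the start (adjusted p = 0.25). The labels read here give no clock hour, and time of day and time since the start cannot be told apart.

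Immediate early genes had a median of 0.03, or 0.20 without the 1 h array, with 0 of 35 called, and the nuclear OXPHOS subunit genes 0.02 with 0 of 38 called. Among the immediate early genes 2 were 2-fold higher without overlap, beside 98 of 11567 genes. They were the nuclear receptor gene Nr4a3 (difference 1.71, adjusted p = 0.266) and the bZIP factor gene Maff (1.70, adjusted p = 0.272). Ccn1, a matricellular immediate early gene, had a difference of -0.94 (adjusted p = 0.266). The Sgk1, sodium channel and pump genes, the best known aldosterone targets of the kidney, had a median of -0.20 with 4 of 12 above 0 and 0 called. FoxO targets and atrogenes had a median of 0.23, or 0.31 without the 1 h array, with 0 called. Of 25 members 20 lay above 0, beside 6230 of 11567 genes. Klf15, a glucocorticoid-induced regulator of metabolism in this list, had 12.84, 13.26 and 12.65 late against 11.73, 11.94 and 12.67 at the start. PPAR and fatty acid oxidation genes had a median of 0.13, and Pdk4 was the 1 of 29 called, beside 0.0951% of all genes called higher. Mlycd, which removes the inhibitor malonyl-CoA from fatty acid oxidation, had a difference of -0.67 ± 0.16 (adjusted p = 0.266). Ribosome biogenesis genes had a median of 0.29 with 22 of 26 above 0, beside 6230 of 11567 genes, and 0 called.

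Nppb, the B-type natriuretic peptide gene that cardiac muscle makes under stretch, had 14.72, 14.62 and 14.54 late, against 15.46, 15.90 and 15.74 at the start. It fell by 1.07 ± 0.13 (log2, SE; adjusted p = 0.0257), to 14.63 ± 0.09 late against 15.70 ± 0.22 at the start (SD, n = 3 each). The 13 atrial markers summed to 180744.9, 353432.5 and 121953 late, against 535844.4, 61572 and 221649.1 at the start. The part of atrial tissue in the Nppb difference was not tested.

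The other genes with the smallest p for a lower late level did not pass the test without a block. With scan day as a block 21 probe sets were called lower, and Hipk2, Gja1, Tsc22d4, Bcam and Scand1 passed (adjusted p = 0.0408, 0.0336, 0.0272, 0.0408 and 0.0336), as did Fcgr2b among the higher genes (0.0408). The adjusted p values that follow are those without the block. Hipk2, a nuclear kinase, had a difference of -1.14 ± 0.19 (adjusted p = 0.0736). Its other tested probe sets had -1.34, -0.68, -0.09, -0.06 and 0.11, and the one at -0.09 was the brightest. Gja1, the main ventricular gap junction protein connexin 43, had 15.12, 14.94 and 15.18 late, against 16.17, 15.79 and 15.61 at the start (difference -0.78 ± 0.15; adjusted p = 0.151), and its other 5 probe sets were lower too, by 0.60 to 1.21. Bcam, a laminin receptor, Slitrk2, a neuronal membrane protein, Scand1, a zinc finger partner, and Tmem143 had differences of -1.67, -1.59, -1.34 and -1.16 (adjusted p 0.151 to 0.220). Nos3, the endothelial nitric oxide synthase, had -0.85 ± 0.19 (adjusted p = 0.232). Tsc22d4, Ptms, H2-Eb2 and Gas1 had -1.04, -1.06, -1.19 and -0.82. A dimmer tested probe set of Tsc22d4 had -0.06, and untested probe sets of Gas1 and Slitrk2 had 0.99 and 0.28. Fcgr2b, an inhibitory Fc receptor, had the smallest p among higher genes that were not called (1.59 ± 0.24; adjusted p = 0.0561), and a brighter probe set of it had -0.27.

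Lists of other cells moved as follows. Lung markers had 0 of 12 above 0 and a median of -0.99, and of -0.05 without the 1 h array. Erythroid markers had 0 of 5 above 0 and a median of -0.52, and -0.15 without that array. Smooth muscle and pericyte markers had 2 of 14 above 0 and a median of -0.26, with 0 called. Fibroblast and collagen genes had 4 of 20 above 0 and a median of -0.14. Among macrophage markers 13 of 21 lay above 0, Ms4a6d with a difference of 1.90 and C1qa with -1.10.

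The aldosterone arrays were fitted apart and share no array with the controls. Lung markers summed to 533553.5 on the 1 h aldosterone array, against 21546.1 at 0.5 h and 17958 to 26019.2 at 3 to 5 h. The log2 Gapdh ratio of that 1 h array was 3.31, against -0.23 at 0.5 h and -0.14 to 2.17 late. The part of lung RNA in the aldosterone differences was not tested. For 3 to 5 h against 0.5 and 1 h, 0 probe sets were called there (0% of 22286; 638 at unadjusted p under 0.05 in limma), with 3 and 2 arrays. The differences of the 18 called control probe sets had the same sign in aldosterone, beside 59.0% of tested probe sets, and a median ratio of 0.653 to the control difference. Mt2 had 14.83, 15.89 and 15.92 late against 12.29 and 13.67 early, a difference of 2.57 ± 0.46 (SE). Serpina3n had 11.64, 12.02 and 12.29 late against 8.14 and 10.10 early, a difference of 2.87 ± 0.52. Selp differed by 2.36 ± 0.54. Gbp2 differed by 1.10 ± 0.485 on the brighter probe set, where the groups overlapped, and by 1.45 ± 0.42 on the dimmer. Nppb differed by -0.77 ± 0.37, with the 4 h aldosterone array at 15.83. Ifit1 and Ifit3 differed by 0.87 ± 0.36 each, against 1.85 ± 0.26 and 1.55 ± 0.20 in controls.

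The difference between the arms was tested at matched times, without the 0 h array, and 0 probe sets were called (0% of 22286; 526 at unadjusted p under 0.05 in limma). Its median SE was 0.38, and the gap of Ifit1, 0.96 ± 0.51 (SE), was not called. Of the 98 genes at least 2-fold higher without overlap in controls, 82 had a positive aldosterone difference, beside 53.4% of all genes. Of the 98, 13 (13.3%) were also 2-fold higher without overlap in aldosterone, beside 0.424% of all genes. The 13 are 26.5% of the 49 such genes in aldosterone. Of the 49 genes 2-fold lower in controls, 24 (49.0%) had a negative aldosterone difference, where 53.4% of all genes had a positive one. Across tested probe sets the differences in controls and in aldosterone correlated with a Pearson r of 0.289 (22286 probe sets). Probe sets are not independent, arrays of a time share their scan day, and the 1 h arrays of both arms carried lung transcripts.

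**Figure D4:**
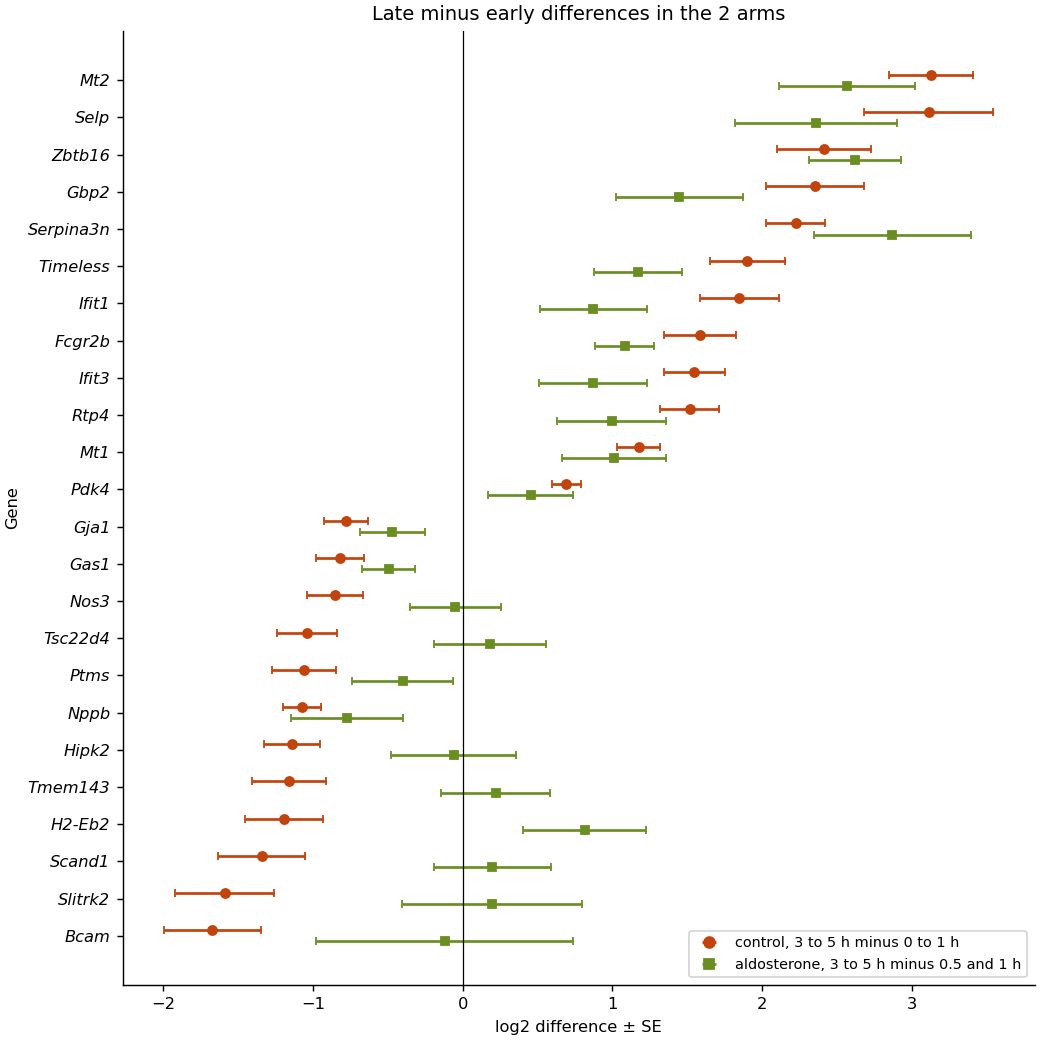
Late minus early differences (log2, ± SE) of the 24 named genes in controls (red circles) and in aldosterone (green squares). The 12 genes higher in controls have positive aldosterone differences, while several of those lower in controls lie near 0 there, such as Hipk2 at -0.06.

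The single control arrays at 2 h and 12 h were kept out of the test. At 2 h Selp stood at 12.10, within the range at 3 to 5 h, and Mt2 at 14.67 and Serpina3n at 11.60, between the groups and nearer the late one, while Pdk4 stood at 15.12, below both groups. Socs3 was at 13.10 at 2 h, above the late arrays. At 12 h Serpina3n was at 12.11 and Mt1 at 17.18, each above the late arrays, Selp was at 9.43 and Nppb at 15.23, both between the groups. With 1 array each these values have no replicate check.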

How the data were processed

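Total RNA of mouse whole hearts was hybridised to arrays of 45101 probe sets. The authors deposited a linear signal intensity for each probe set. The submitters' processing notes name GCOS 1.2, and the 2% trimmed mean was near 1500 on each array (1499.6 to 1500). The arrays' experiment files gave scan day, lot and station. No column of another sample was present.

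From these values, log2(signal + 167.8), the 25th percentile, was taken, followed by quantile normalization over 15 arrays. Probe sets with a mean of at least 526.7 were kept (22286, covering 11567 genes; lists use the probe set with the highest mean). Tests were run with limma (version 3.58.1, under R 4.3.3, tables read by data.table, version 1.17.8), a variance trend and Benjamini-Hochberg adjustment over all tested probe sets, and figures used matplotlib 3.10.9. The step was also run on simulated data, drawn independently for each probe set without time, scan day or lung structure. No result here rests on that run. An exact permutation test of 3 against 3 arrays cannot go below p = 0.10. Array number limits the precision. Each scan day held 1 late and 1 start array, and the block for scan day is an alternative.

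Symbols came from the platform annotation (1 symbol for 34958 probe sets, several for 932, none for 9211), and 895 of 980 list and gene pairs matched. Promoters came from RefSeq. Named genes were up to 12 per direction, called ones by size and then by smallest unadjusted p, and up to 6 members per list by size of the statistic. The comparison, the 41 lists and their members were chosen with earlier results of these data known. A few members outside that rule, named as examples of direction or for the lung markers, were chosen after their values were seen. Alternatives covered scaling, pseudocount, filter, variance trend, scan day, Gapdh ratio, joint and trend fits, and leaving out each array.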

Additional observations from a re-analysis of the deposited data

Results flagged for a closer look

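H2-Eb2, a gene of the MHC class II family, had log2 values of 9.56, 9.25 and 9.48 in late controls against 10.71, 10.81 and 10.35 in start controls. In aldosterone it had 9.59, 9.57 and 9.09 at 3 to 5 h against 8.89 and 8.32 at 0.5 and 1 h, so the arrays moved in opposite directions in the arms without overlap. Its 1 probe set was dim (mean log2 9.61), and the 1 h aldosterone value of 8.32 was near background. That 1 h array also carried lung transcripts and had a log2 Gapdh ratio of 3.31, and their part was not tested. The H2-Eb2 difference between the arms was -1.96 ± 0.46 (log2, SE), and it was not called in limma over all probe sets (adjusted p = 0.9995). H2-Eb2 is 1 of 24 named genes looked at in this way.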

How the results depend on the processing

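Of 18 called probe sets in control late minus start, the count was 12 with the deposited scaling, 5 with no filter, 1 with no variance trend, 71 when scan day was a block, 4 given the Gapdh covariate, 7 fitted with the aldosterone arrays and 0 for a linear trend from 0 to 5 h (2632 at unadjusted p under 0.05 in limma). Leaving out each array gave 3 to 65: 4 without 0 h, 3 without 0.5 h, 65 without 1 h, and 5 without 3, 4 or 5 h. The named genes kept their direction in each setting that tested them; Mt2 and Serpina3n were called in 14 of 16 settings, Selp in 3 and Ifit1 in 4. Genes not overlapping by 2-fold numbered 147, or 140 with the deposited scaling (61 higher, 79 lower), and 153 to 452 with an array left out, 452 without 1 h, 242 without 3 h and 256 without 5 h, where fewer arrays make overlap rarer. List members called were 12, 7 with the deposited scaling and 19 without 1 h, both chosen after seeing the data. Aldosterone late minus early gave 15 with scan day as a block (15 higher and 0 lower) and 0 with a late array left out. The difference of the arms gave 0 with a late array left out. Leaving out an early array leaves 1 early array of its arm in these 2 fits, so no count is given. Where not stated, the cause was not tested. The labels pair no arrays by number. Scan day pairs 1 late with 1 start control array, and its block is the setting that gave 71.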
